A study of Mus musculus with 8 samples.

Results

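The aminoacyl-tRNA synthetases are the enzymes that load each tRNA with its amino acid. Their genes were taken from a table of 16888 genes by symbol: every gene whose symbol carries the synthetase ending was included, which gave 38 genes. Of these, 19 encode enzymes of the cytosol, 2 (Gars and Kars) encode enzymes of both cytosol and mitochondria, and 17, with the suffix 2 in their symbol, encode mitochondrial enzymes. RNA had been sequenced from whole mouse pancreas in 8 samples, all after repeated injections of cerulein, an analogue of the gut hormone cholecystokinin used to induce pancreatitis in mice. In 4 samples (CKO1 to CKO4) Anxa1, which encodes the phospholipid-binding protein annexin A1, was knocked out in myeloid cells, and 4 samples (WT1 to WT4) came from Anxa1 flox/flox mice. The promoter that drove the deletion, the strain, the age and the origin of replicates from separate animals were not given in the sources used here, so each p-value measures the spread between these samples, which may be technical. No sample without cerulein was analysed here.

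A synthetase joins an amino acid to its tRNA in an ATP-dependent reaction and so sets which amino acid a codon adds to a protein. Cytosolic and mitochondrial translation use mostly separate sets of these enzymes, all encoded in the nucleus. Acinar cells of the pancreas make large amounts of secreted digestive enzymes and are rich in translation machinery. When amino acids run short or protein folding in the endoplasmic reticulum is disturbed, kinases such as GCN2 and PERK phosphorylate eIF2 and translation of the transcription factor ATF4 rises. Many cytosolic synthetase genes are among the known ATF4 targets, beside genes of amino acid synthesis and transport.

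Levels are given in RPKM, read numbers scaled to gene length in kilobases and to the size of the library. Library totals ranged from 30469002 to 34359802 reads, so that a count of 3 over 1 kb amounts to 0.0873 to 0.0985 RPKM. Where 4 values of a group are listed, they stand in the order of the replicate numbers. Anxa1 itself, measured over all cells of the tissue, had 4.84, 4.76, 5.21 and 7.13 RPKM in the CKO libraries and 8.44, 14.7, 7.05 and 9.74 RPKM in the WT libraries. The groups overlapped, with CKO4 just above WT3, and the log2 change was -0.73 ± 0.19 (SE; adjusted p = 0.0417). That call held on leaving out CKO4 or WT3 and was lost on leaving out each of the other 6, with adjusted p-values up to 0.108. For the tissue label, acinar digestive enzymes and other secreted acinar proteins were checked, and took 62.1% ± 4.12 of reads in CKO and 60.0% ± 1.41 in WT (SD, n = 4; exact two-sided permutation test over 70 arrangements, p = 0.371, where the smallest possible p is 0.0286), with CKO1 highest at 66.2%. Summed macrophage markers (12 genes, 11 tested, 2 lower and 0 higher in CKO) ran from 166 RPKM in CKO1 to 356 in CKO, and from 316 to 604 RPKM in WT, with WT2 highest. WT2 was also highest in the summed adipocyte markers (58.7 RPKM, at most 30.3 elsewhere) and B and plasma cell markers (13.2 RPKM, 4.54 in WT3 and at most 0.496 elsewhere; Cd79b was at 0 in CKO2, WT1 and WT4). Summed duct markers (5 tested, 1 lower and 0 higher) did not overlap, at 276 to 524 RPKM in CKO and 544 to 609 RPKM in WT. Islet markers (6 tested, 1 higher and 0 lower, all 6 with positive changes) summed to 1204 to 1896 RPKM in CKO and 791 to 1520 in WT. In whole tissue, fewer cells of a type and less RNA per cell cannot be told apart. The part of these cell type differences in the results on synthetases was not tested.

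All 38 synthetase genes were detected, and their mean levels per length spanned from 149 RPKM for Gars, the glycine enzyme, to 0.151 RPKM for Nars2, the mitochondrial asparagine enzyme. Nars2 was scaled to a recovered length of 15487 bases, against 6967 exon bases in the GENCODE M21 annotation. Its rank depends on that length. Cytosolic and shared enzymes had a median of 28.2 RPKM over their mean levels, against 1.13 RPKM for the mitochondrial enzymes. Gars and Nars, the cytosolic asparagine enzyme, stood well above the rest: Gars was 152 ± 20.2 RPKM in CKO and 146 ± 11.9 in WT (SD, n = 4), and Nars 147 ± 23.0 and 133 ± 10.3. Within libraries, Gars was above Nars in each one except CKO2 (153 against 158 RPKM). The difference between the 2 genes was not tested. Next in order came Rars (arginine) at 56.2 RPKM, Sars (serine) at 46.9 and Tars (threonine) at 44.3, and the following 5 genes, Cars (cysteine), Yars (tyrosine), Wars (tryptophan), Iars (isoleucine) and Kars (lysine), lay between 36.0 and 31.6 RPKM with overlapping values. Among cytosolic enzymes the lowest was Tarsl2, a second threonine enzyme, at 1.48 RPKM. The highest mitochondrial gene was Yars2 (tyrosine) at 10.3 RPKM, followed by Lars2 (leucine) at 8.10, and no other mitochondrial gene exceeded the 2.87 RPKM of Iars2 (isoleucine).

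**Figure D1:**
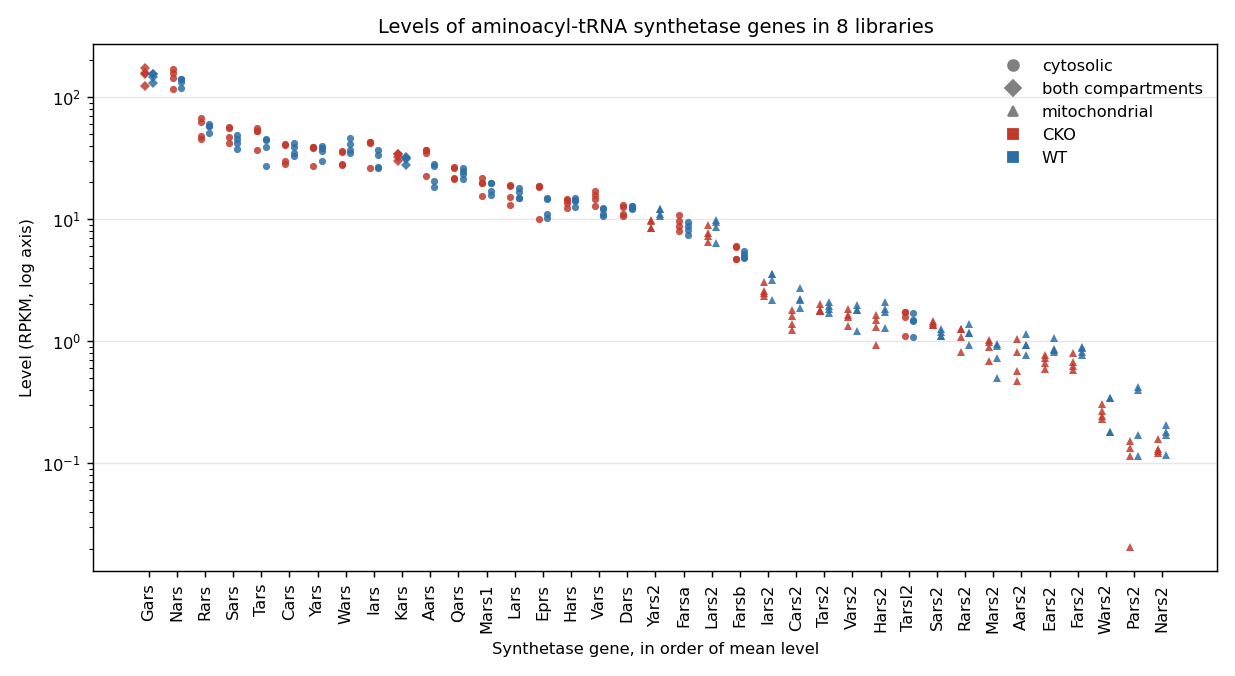
Level of 37 synthetase genes in RPKM (log axis), ordered by mean level, with 1 point for each library, CKO in red and WT in blue, and the shape of the point giving the compartment. Gars and Nars lie highest, near 149 and 140 RPKM, and apart from Yars2 and Lars2 the mitochondrial genes lie under 5 RPKM.

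Between CKO and WT no synthetase passed the test. With limma on log2(RPKM + 1), 0 of the 30 members that could be tested had an adjusted p under 0.05, while 7.17% of all 8513 tested genes did (1.42% higher and 5.74% lower in CKO). Limma-voom on recovered reads also called 0. At an unadjusted p under 0.05 limma gave 2 higher members, Vars and Aars, and 3 lower ones, Cars2, Wars and Yars2, against a background of 4.60% of genes higher and 22.7% lower. The 95% intervals of the 30 log2 changes lay between -0.63 (the lower limit for Cars2) and 0.84 (the upper limit for Aars). The other 8 members, all mitochondrial, had fewer than 4 libraries at 1 RPKM or more and were not tested.

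The signs of the fitted changes differed by compartment. Of 21 cytosolic and shared enzymes, 14 had a positive change (higher in CKO) and 7 a negative one, with a median of 0.06, whereas 1 of 9 tested mitochondrial enzymes had a positive change and 8 a negative one, with a median of -0.15. Of all tested genes 2522 had a positive and 5991 a negative change, with a median of -0.12, close to that of the mitochondrial enzymes. With each library centred on its median gene, which moved the median of all genes to -0.02, the counts became 20 positive and 1 negative for cytosolic and shared enzymes, 4 positive and 5 negative for mitochondrial ones, and 3972 positive and 4541 negative for all genes. With library totals taken without the acinar list they were 18 and 3, and 5 and 9 of 14 tested. The difference between the compartments was not tested, since the members share their libraries.

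**Figure D2:**
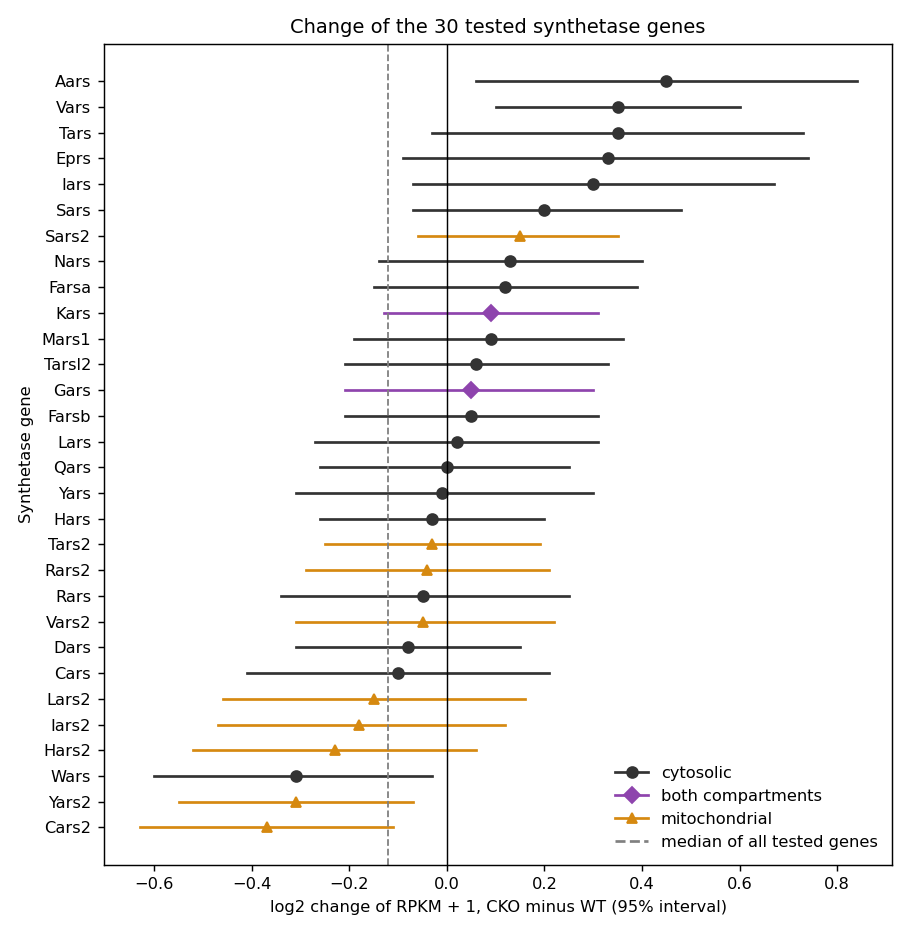
Log2 change of RPKM + 1, CKO minus WT, for the 30 tested synthetase genes, with 95% intervals as bars and the compartment as colour and shape. Vars and Aars have intervals above 0 and Wars, Yars2 and Cars2 intervals below 0, and none of the 30 passed the adjusted threshold. The dashed line marks the median of all tested genes, -0.12.

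Among the cytosolic enzymes the largest positive change was that of Aars, the alanine enzyme (chr8:111033144-111057664 in mm10, plus strand). The CKO libraries gave 22.5, 37.0, 36.9 and 34.5 RPKM and the WT libraries 28.4, 18.3, 27.2 and 20.6 RPKM. CKO2, CKO3 and CKO4 were above every WT library, while CKO1 fell among the WT values. The ratio of mean RPKM was 1.39 and the log2 change 0.45 ± 0.18 (SE; limma, adjusted p = 0.132).

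Vars, the valine enzyme (chr17:35000987-35016322, plus strand), reached 12.8, 15.9, 16.9 and 14.5 RPKM in CKO, above its 12.1, 10.6, 12.4 and 11.0 RPKM in WT. It was the only cytosolic member whose groups did not overlap, a pattern found, in the higher direction, in 2.46% of all tested genes. Its ratio of means was 1.30 and its log2 change 0.35 ± 0.12 (SE; limma, adjusted p = 0.0807). With the libraries scaled otherwise, it passed: under median centring at 0.45 (adjusted p = 0.0157), where 3.58% of all genes were called higher, and with totals taken without the acinar list at 0.45 (adjusted p = 0.0170), where 2.52% were.

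Tars, Eprs and Iars followed a similar outline to Aars. Tars, the threonine enzyme, was 36.5, 55.9, 53.1 and 53.1 RPKM in CKO and 44.7, 27.2, 45.1 and 38.6 in WT, with a log2 change of 0.35 ± 0.18 (SE; limma, adjusted p = 0.218). Eprs, which joins the glutamate and proline activities in a single protein, was 10.1, 18.3, 18.5 and 18.5 RPKM in CKO and 14.5, 11.0, 14.8 and 10.2 in WT (0.33 ± 0.19, adjusted p = 0.293). Iars, the isoleucine enzyme, was 26.0, 42.1, 42.9 and 43.1 RPKM in CKO and 33.5, 26.9, 36.5 and 26.3 in WT (0.30 ± 0.17, adjusted p = 0.275). In each of these genes CKO2, CKO3 and CKO4 were above all WT libraries. CKO1 fell among the WT values for Tars and just below every WT library for Eprs and Iars. Sars, the serine enzyme, had a log2 change of 0.20 ± 0.13 (adjusted p = 0.323) with overlapping groups.

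Wars, the tryptophan enzyme and a known interferon-responsive gene, had the largest negative change among cytosolic members. The CKO libraries gave 27.5, 35.9, 35.3 and 28.2 RPKM, the WT libraries 41.2, 36.5, 46.4 and 34.5 RPKM. CKO1 and CKO4 were below every WT library, while CKO2 and CKO3 were above WT4. The ratio of means was 0.800 and the log2 change -0.31 ± 0.13 (SE; limma, adjusted p = 0.146).

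The most abundant enzymes had small fitted changes. Gars (chr6:55038007-55079500, plus strand) stood at 124, 153, 173 and 156 RPKM in CKO and at 154, 130, 155 and 145 in WT, with a log2 change of 0.05 ± 0.12 and a 95% interval from -0.21 to 0.30. Nars had a log2 change of 0.13 ± 0.13, with an interval from -0.14 to 0.40. Kars, the other enzyme shared by both compartments, was 30.1, 34.1, 34.2 and 32.1 RPKM in CKO and 32.3, 31.0, 31.4 and 27.5 in WT, with a log2 change of 0.09 ± 0.10 and an interval from -0.13 to 0.31. Values of the groups overlapped in all 3 genes. Positive changes of at most 0.12 were found for Farsa and Farsb, the 2 subunits of the phenylalanine enzyme (0.12 and 0.05), Mars1 (methionine, 0.09), Tarsl2 (0.06) and Lars (leucine, 0.02). Changes from -0.00 to -0.10 were found for Qars (glutamine), Yars, Hars (histidine), Rars, Dars (aspartate) and Cars, and the sign of all 6 turned positive with median centring.

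The cytosolic enzymes shared a profile over the libraries. CKO1 had the lowest value of the 4 CKO libraries in 19 of 21 cytosolic and shared members and CKO4 in the other 2, while CKO1 was lowest in 7 of 17 mitochondrial members and in 47.1% of all tested genes. Within WT, WT2 was lowest in 12 of the 21 members and in 20.3% of all tested genes, and WT4 in 8 members and in 47.7% of genes. The median deviation of these 21 members from their own mean over libraries was -0.24 in CKO1, 0.14 in CKO2, 0.22 in CKO3 and 0.05 in CKO4, on the log2 scale. In WT1 to WT4 it was 0.05, -0.13, 0.06 and -0.12. All tested genes together had -0.17, 0.00, 0.09 and -0.15 over the CKO and 0.06, 0.10, 0.11 and -0.03 over the WT libraries, so CKO1 was low in general, while WT2 was not. The summed level of all 38 members was lowest in CKO1 (666 RPKM) and WT2 (699 RPKM) and highest in CKO3 (928 RPKM), so the libraries at both ends came from the same group. Synthetases took 0.260% ± 0.0377 of reads in CKO and 0.239% ± 0.0223 in WT (SD, n = 4).

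**Figure D3:**
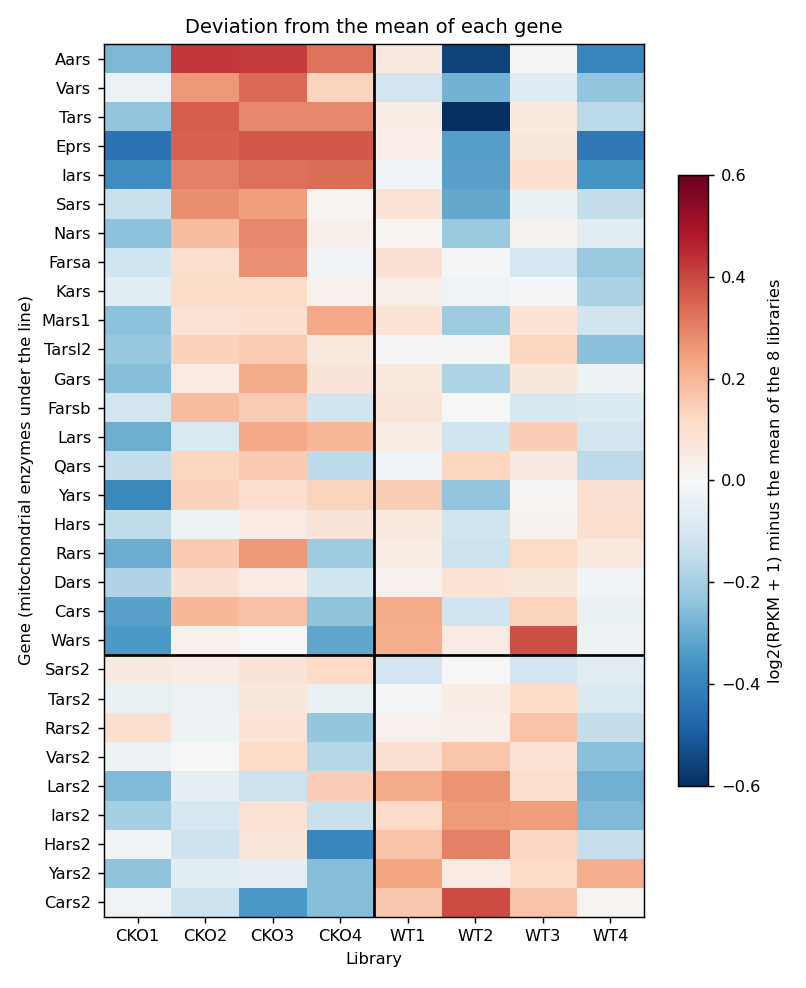
Log2(RPKM + 1) of each tested synthetase gene minus its mean over the 8 libraries, with libraries as columns and genes as rows, mitochondrial enzymes under the horizontal line. CKO1 is blue in nearly all cytosolic rows, CKO2 and CKO3 are mostly red, and WT2 is darkest blue in Tars and Aars.

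Leaving out CKO1 changed the calls. Without it, 4 of the 30 members passed the threshold, all higher in CKO, against 2.86% of all 8457 genes then tested. Aars had a log2 change of 0.61 (limma, adjusted p = 0.0324), Eprs 0.53 (adjusted p = 0.0424), Vars 0.42 (adjusted p = 0.0476) and Iars 0.47 (adjusted p = 0.0482). Tars reached 0.49 without passing (adjusted p = 0.0796). Leaving out any other library gave 0 members past the threshold. Without WT2, the lowest WT library in Aars and Tars, the changes were smaller: Tars had 0.19 (adjusted p = 0.501), Aars 0.34, Eprs 0.27 and Iars 0.24. CKO1 had the highest acinar share of reads and the lowest summed macrophage and neutrophil markers (166 and 14.3 RPKM) of the 8 libraries, and the part of these in the calls was not tested.

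A set of 13 synthetase genes known as ATF4 targets (Aars, Cars, Eprs, Gars, Iars, Lars, Mars1, Nars, Sars, Tars, Vars, Wars and Yars) had a median log2 change of 0.13, with 10 positive and 3 negative, and 0 passed the test. The other 8 cytosolic and shared members had a median of 0.02, with 4 positive and 4 negative. The median deviations of the 13 genes were -0.27, 0.20, 0.25 and 0.13 over the CKO and 0.05, -0.24, 0.07 and -0.12 over the WT libraries. CKO1 was the lowest CKO library in 13 of 13 and WT2 the lowest WT library in 10 of 13. In the other 8 members the median deviation was -0.15 in CKO1, the lowest CKO library in 6 of them, and -0.00 in WT2. Low values in CKO1 were thus also present outside the linked set, and all tested genes together had -0.17 in that library. A list of 32 genes of the amino acid response, the program run by ATF4, had its 2 lowest median deviations in the same libraries, -0.22 in CKO1 and -0.38 in WT2.

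**Figure D4:**
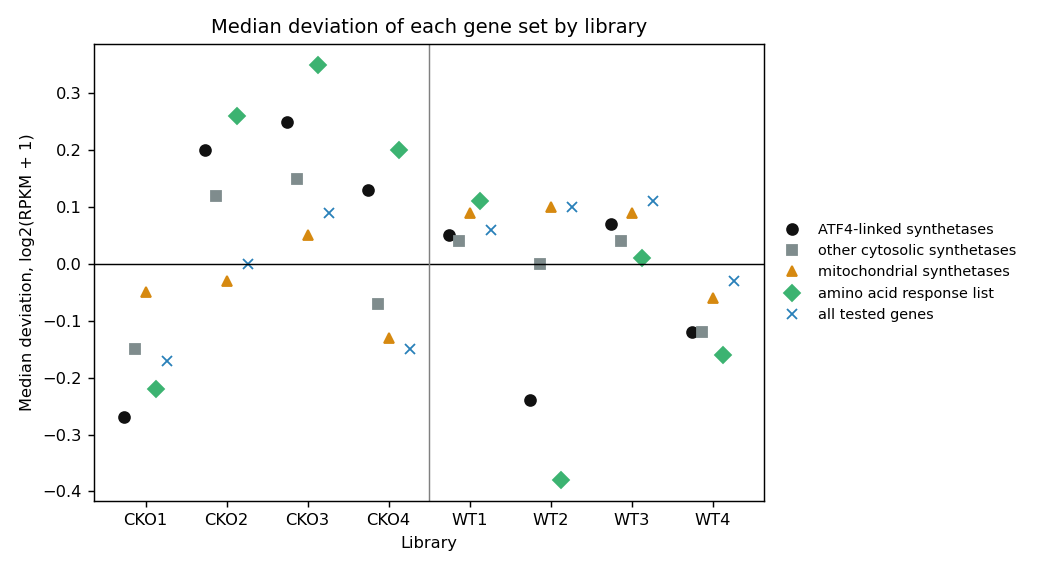
Median deviation of log2(RPKM + 1) from each gene's own mean, for each library (horizontal axis) and gene set (colour and shape). ATF4-linked synthetases and the amino acid response list are lowest in CKO1 (-0.27 and -0.22) and WT2 (-0.24 and -0.38), whereas mitochondrial synthetases in WT2 lie at 0.10.

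Promoters of the synthetase genes were read for the C/EBP-ATF element, the composite site bound by ATF4 with a C/EBP partner, because the 13 linked genes shared a profile over the libraries. The motif TGATGNAA was searched on both strands in the RefSeq promoters of build GRCm38.p6, from 250 bases before to 50 bases after each start. A promoter was matched by symbol for 28 of the 38 members, and 5 of them held the motif, all cytosolic or shared (5 of 14, 35.7%), with 0 of 14 among mitochondrial members. In the amino acid response list, 9 of 28 genes held it. These counts are by gene, where any promoter of the symbol could hold the motif. Counted promoter by promoter, it was present in 3.97% of all 32851 promoters, which is not the same unit. All 5 members with the motif are in the ATF4-linked set, in which 8 had a promoter (62.5% with the motif). A match is a description of letters and does not show binding. Distances are from the RefSeq start, which can differ from the first base of a gene's coordinates. For Aars it lies downstream of the first base given above. For each of the 5 genes, the 30-base window around the match nearest to the start, and that of Asns, the asparagine synthetase gene known for this element, are shown 5′ to 3′ on the strand that reads TGATGNAA, with the motif in capitals.
Aars, 10 to 17 bases after the start, chr8:111033840-111033869, minus strand: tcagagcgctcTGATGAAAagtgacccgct
Gars, 30 to 23 bases before the start, chr6:55037960-55037989, minus strand: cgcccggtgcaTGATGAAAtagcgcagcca
Iars, 8 to 15 bases after the start, chr13:49682126-49682155, minus strand: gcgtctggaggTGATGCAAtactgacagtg
Tars, 15 to 8 bases before the start, chr15:11399655-11399684, plus strand: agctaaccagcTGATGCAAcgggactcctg
Yars, 4 to 11 bases after the start, chr4:129189895-129189924, plus strand: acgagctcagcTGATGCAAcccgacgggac
Asns, 23 to 16 bases before the start, chr6:7693214-7693243, minus strand: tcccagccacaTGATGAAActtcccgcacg
Of these genes, Aars, Iars and Tars had log2 changes of 0.45, 0.30 and 0.35, while Gars, Yars and Asns had 0.05, -0.01 and 0.00. The motif was thus found both in members with the largest positive values and in members near 0.

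Of the tested mitochondrial enzymes, Cars2 and Yars2 had the largest changes on the log2(RPKM + 1) scale. Both were negative, and neither passed the test. The place of Yars2 depends on that scale: with a pseudocount of 0.1 it had -0.34 and Hars2 -0.36. Cars2, the mitochondrial cysteine enzyme (chr8:11513977-11550783, minus strand), had 1.80, 1.61, 1.24 and 1.38 RPKM in CKO, against 2.18, 2.73, 2.20 and 1.87 RPKM in WT. Every CKO library was below every WT library. The ratio of means was 0.671 and the log2 change -0.37 ± 0.12 (SE; limma, adjusted p = 0.0767).

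Yars2 (chr16:16302965-16309640, plus strand), the most abundant mitochondrial member, was 8.47, 9.68, 9.79 and 8.38 RPKM in CKO and 12.2, 10.6, 11.1 and 12.0 RPKM in WT. Its groups did not overlap either, and lower, non-overlapping CKO values were found in 16.2% of all tested genes. The ratio of means was 0.791 and the log2 change -0.31 ± 0.11 (SE; limma, adjusted p = 0.0926).

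Sars2, the mitochondrial serine enzyme, was the exception in direction. Its levels were 1.36, 1.35, 1.40 and 1.47 RPKM in CKO and 1.10, 1.27, 1.10 and 1.18 RPKM in WT, with all CKO values above all WT values. These rest on 78 to 109 reads for each library, and the log2 change was 0.15 ± 0.09 (SE; limma, adjusted p = 0.326). Hars2 (histidine), Iars2 and Lars2 had log2 changes of -0.23, -0.18 and -0.15, with adjusted p-values of 0.283, 0.428 and 0.525 and overlapping groups. Rars2 (arginine), Tars2 (threonine) and Vars2 (valine) lay between -0.03 and -0.05, and turned positive with median centring.

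The 8 untested mitochondrial members had mean levels under 1 RPKM. The filter was on RPKM and not on reads. Fars2, scaled to a length of 12529 bases, had 248 to 351 reads for each library, against 78 to 109 for the tested Sars2. Ears2 (glutamate) was 0.722, 0.764, 0.661 and 0.593 RPKM in CKO and 1.07, 0.814, 0.858 and 0.853 in WT, and its groups did not overlap; 14.3% of all genes in the table had groups that did not overlap in either direction. Aars2 (alanine), Fars2 (phenylalanine), Nars2 and Pars2 (proline) had lower means in CKO, with ratios from 0.378 (Pars2) to 0.802 (Fars2), while Mars2 (methionine) and Wars2 (tryptophan) had ratios of 1.16 and 1.01. Pars2 was the least certain, with 2 to 42 reads for each library, and its 2 reads in CKO4 are under the limit of 3 reads used here. Fitted without a filter on low values, none of the 8 passed the threshold.

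For 13 amino acids, the level of the cytosolic gene (Tars for threonine) was set against that of the mitochondrial gene within each library. The ratio of mean RPKM was lowest for leucine (Lars over Lars2, 2.02) and highest for asparagine (Nars over Nars2, 926), with a median of 22.2. Their sizes depend on the gene lengths used, which were 2603 bases for Nars and 15487 for Nars2. In reads for each library, Nars had 9940 to 15132 and Nars2 55 to 102. In 10 of the 13 pairs the mean ratio was higher in CKO and in 3 (methionine, serine and tryptophan) lower, and in all 13 the groups overlapped. Alanine showed the widest relative gap: Aars over Aars2 was 48.1, 45.6, 35.2 and 60.1 in CKO and 30.4, 16.0, 35.5 and 22.1 in WT, where CKO3 fell just under WT3. Tyrosine was closest in level after leucine, with Yars over Yars2 at 3.95 ± 0.606 in CKO and 3.11 ± 0.190 in WT (SD, n = 4), and CKO1 at 3.19 among the WT values of 2.83 to 3.24. These ratios were not tested.

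**Figure D5:**
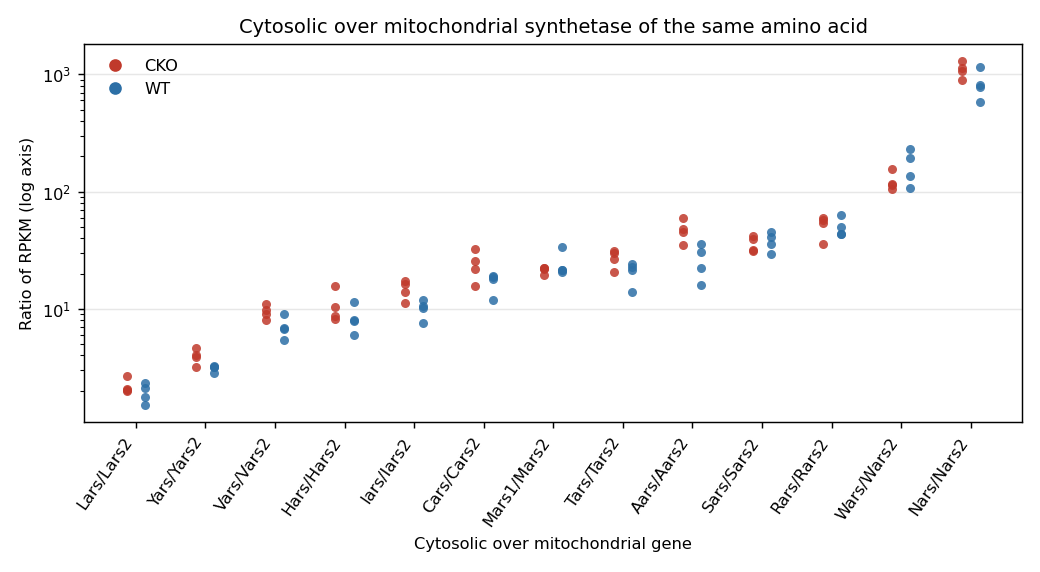
Ratio of the RPKM of the cytosolic to that of the mitochondrial gene for each of 13 amino acids (log axis), with 1 point for each library, CKO in red and WT in blue. Ratios of mean RPKM run from 2.02 for leucine to 926 for asparagine, and the CKO and WT points overlap in all 13.

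Grouped by structure, the members had medians near 0. Synthetases fall into 2 classes with unrelated catalytic folds. Class I members had a median log2 change of -0.04 over 16 tested genes, class II members 0.08 over 14. Eprs, whose protein joins 2 activities, was counted in class I only. Among cytosolic and shared members alone, the medians were 0.01 (10 genes) and 0.09 (11 genes). The 8 enzymes of the multisynthetase complex, a cytosolic assembly that holds Eprs, Iars, Lars, Mars1, Qars, Rars, Kars and Dars on 3 scaffold proteins, had a median of 0.06, with 5 positive and 3 negative. Of the scaffolds, Aimp1 fell: it was 10.7, 10.4, 10.1 and 9.15 RPKM in CKO and 13.5, 14.6, 13.3 and 14.1 in WT, every CKO library being lower, with a log2 change of -0.42 ± 0.10 (SE; limma, adjusted p = 0.0311). That call held on leaving out CKO1 or CKO3 and was lost on leaving out each of the other 6, with adjusted p-values up to 0.0885. Aimp2 had a log2 change of -0.04, which turned to 0.07 with median centring, and Eef1e1, the third scaffold, one of 0.14.

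In the wider list of 13 synthetase partners, 2 of 9 tested genes, Aimp1 among them, were lower and 0 higher, with a median of -0.10, against 5.74% of all tested genes lower and a median of -0.12. Pstk and Aarsd1 had log2 changes of -0.35 and -0.17 (adjusted p = 0.212 and 0.460), and Xpot, the exporter of tRNA from the nucleus, one of -0.00, which became 0.10 with median centring.

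Of 13 tested partners of mitochondrial translation, 1 was lower and 0 higher, with a median of -0.14, close to the general 5.74% lower and median of -0.12. This was Tsfm, a mitochondrial elongation factor, at 2.48, 2.89, 2.21 and 1.77 RPKM in CKO and 3.67, 3.40, 3.50 and 4.06 in WT, with no overlap (log2 change -0.49 ± 0.13, limma, adjusted p = 0.0380). The call held on leaving out CKO1 or CKO2 and was lost on leaving out any of the other 6, with adjusted p-values up to 0.0969. Gtpbp3, Mtfmt and Trmu modify mitochondrial tRNAs or their charged amino acid, and were named for their small unadjusted p. They had log2 changes of -0.35, -0.28 and -0.28 and did not pass (limma, adjusted p = 0.0637, 0.107 and 0.122). Their CKO values were lower without overlap. Such values were found in 6 of the 13 tested genes of the list and in 16.2% of all tested genes, a difference that was not tested.

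In the amino acid response list, 4 of 32 genes rose and 0 fell, with a median log2 change of 0.18, against 1.42% of all tested genes that rose. Slc38a2, a transporter of neutral amino acids, was 29.2, 31.3, 37.9 and 32.9 RPKM in CKO and 10.5, 9.91, 10.3 and 10.9 in WT, a ratio of means of 3.15 (log2 change 1.56 ± 0.11, limma, adjusted p = 6.73e-06). Ppp1r15a, the eIF2 phosphatase subunit GADD34, had a ratio of 2.91 and Ddit3, the transcription factor CHOP, one of 2.44, both without overlap between groups; Ddit3 shares 68 exon bases with Mars1 on the opposite strand. Atf3, a stress-induced transcription factor, had a ratio of 1.93 (adjusted p = 0.0233), and lost its call without CKO2 or CKO4 (adjusted p = 0.0594 and 0.0581). Asns, a classic member of the list, was at 274 ± 25.5 RPKM in CKO and 274 ± 22.7 in WT (SD, n = 4; log2 change 0.00 ± 0.11).

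Atf4 itself did not pass. It had 304, 386, 406 and 335 RPKM in CKO and 278, 182, 272 and 287 in WT, so every CKO library was above every WT library, with CKO1 lowest in CKO and WT2 lowest in WT. The log2 change was 0.50 ± 0.15 (SE; limma, adjusted p = 0.0661), and it passed without CKO1 (0.58, adjusted p = 0.0461). Chac1 and Trib3, both known ATF4 targets, had log2 changes of 1.18 and 0.97 (adjusted p = 0.0947 and 0.0889); Chac1 passed without WT2, where its level was 56.2 RPKM against 141 to 233 in the other WT libraries, although its change was then smaller (0.76, adjusted p = 0.0470). Trib3 passed without CKO1 (1.18, adjusted p = 0.0498).

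Among the eIF2 kinases and the GCN2 pathway, 1 of 13 tested genes fell and 0 rose, with a median of -0.15; over all tested genes 5.74% fell and the median was -0.12. This was Eif2ak1, the heme-regulated kinase (log2 change -0.47 ± 0.13, limma, adjusted p = 0.0492), whose call was lost on leaving out any of the 8 libraries in turn. Eif2ak4, which encodes GCN2, the kinase that senses uncharged tRNA, was 1.40, 1.28, 1.54 and 1.34 RPKM in CKO and 1.63, 1.76, 1.76 and 0.933 in WT, with a log2 change of -0.06 ± 0.13 that became 0.04 with median centring. Eif2s1, Eif2b2 and Eif2b1, subunits of eIF2 and of its exchange factor, had log2 changes of -0.27, -0.28 and -0.24 and did not pass (adjusted p = 0.126, 0.134 and 0.181).

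Of 29 tested genes that make and process tRNA, 2 fell and 0 rose, a share near the 5.74% of all tested genes that fell, with a median of -0.16 beside -0.12 for all genes. Pop4, a subunit of RNase P, which trims the leading end of tRNA precursors, was 0.942 to 1.60 RPKM in CKO and 2.09 to 2.60 in WT (log2 change -0.57 ± 0.12, limma, adjusted p = 0.0207). Ssb, the La protein that binds new RNA polymerase III transcripts, was 10.1 to 14.2 RPKM in CKO and 16.6 to 18.4 in WT (-0.46 ± 0.12, adjusted p = 0.0404). The call of Pop4 was lost without CKO2, CKO4 or WT1 and that of Ssb without any library other than CKO3, with adjusted p-values up to 0.0676 and 0.112. Gtf3c6, of a polymerase III factor, and Trnt1, which adds the CCA end of tRNA, had log2 changes of -0.46 and -0.40 (adjusted p = 0.0516 and 0.0763), and Gtf3c6 passed without CKO1 (adjusted p = 0.0400). With median centring Pop4 (-0.47, adjusted p = 0.0508), Aimp1, Tsfm and Eif2ak1 no longer passed.

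Some members share exon sequence with a neighbour, and use of strand in the counting was not given in the sources used here. In GENCODE M21, Iars2 shares 2034 exon bases with Rab3gap2 on the opposite strand, Fars2 501 with Nrn1, Cars2 422 with Naxd, and Hars 195 with Hars2. Aars shares 1326 exon bases with Exosc6 on its own strand, a gene that is not among the rows of the table used here. Reads from these stretches cannot be assigned to either gene from the table.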

How the data were processed

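The values were deposited by the authors as RPKM, a unit read from the numbers themselves; alignment was to mm10 per the submitters' processing notes, and the aligner, counter, annotation and strand setting were not given in the sources used here. Of 16068 genes above 0 in at least 2 libraries, 99.93% gave whole reads within 0.01 reads, which yielded library totals and read numbers. An unnamed column (1) was not used. From the whole table, genes reaching 1 RPKM in 4 or more libraries entered limma 3.58.1 in R 4.3.3 on log2(RPKM + 1). Group was the only term, with a variance trend, robust empirical Bayes and Benjamini-Hochberg adjustment over all 8513 genes (threshold 0.05, two-sided). Changes are on the log2(RPKM + 1) scale and understate those of low genes. The members and gene lists were chosen with earlier results of these data known. Members are named, and of the partner and pathway lists, preselected genes and the up to 4 with the smallest unadjusted p; a few items are not reported here. The fit and the read recovery were tested on simulated data. Alternatives were a pseudocount of 0.1, no filter, no trend, limma-voom, a replicate block, 2 other scalings and leaving out each library. Other steps ran in Python 3.11.15, with pandas 2.3.3, SciPy 1.17.1, NumPy 2.4.6 and Matplotlib 3.10.9.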

Additional observations from a re-analysis of the deposited data

Results flagged for a closer look

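Within the 4 libraries of a group, a value was singled out when its gap to the nearest of the others, divided by the range of the group, exceeded Dixon's 95% critical value. Chance gives about 1 such group in 20; among the members it was met in 6 of 76 groups. In 5 of these the library was CKO1, low in each: Aars was 22.5 RPKM against 34.5 to 37.0 in the other CKO libraries, Eprs 10.1 against 18.3 to 18.5, Iars 26.0 against 42.1 to 43.1, Tars 36.5 against 53.1 to 55.9, and Yars, the tyrosine enzyme, 27.0 against 38.2 to 39.3. All 5 genes are in the ATF4-linked set, which holds 13 of the 21 cytosolic and shared members. CKO1 was the lowest CKO library in 19 of those 21. The sixth was Tars2 in CKO3, at 2.00 RPKM against 1.77 to 1.79. Outside the members the number of groups screened is not given here, so the following values cannot be set against that chance rate. Of the other named genes, Atf4 was 182 RPKM in WT2 against 272 to 287 in the other WT libraries. Eef1e1 was 11.1 RPKM in CKO4 against 16.1 to 16.9, Gtpbp3 0.691 RPKM in CKO4 against 0.926 to 0.969, and Eif2ak4 0.933 RPKM in WT4 against 1.63 to 1.76.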

How the results depend on the processing

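With 4 samples a group, 0 members called does not show that levels were equal. Some low mitochondrial genes rest on few reads, while others were left untested for low RPKM over a long gene. No member passed with a pseudocount of 0.1, no filter, no variance trend or limma-voom, where 558, 464, 623 and 423 genes passed against 610. The replicate number as a block gave 548 genes and 0 members. Same-numbered libraries did not deviate together (r = -0.123, -0.315, 0.142 and 0.033). The labels do not say whether equal numbers mark a pairing, and these r values cannot decide it. Under the block Aimp1 (-0.42, adjusted p = 0.0525) and Tsfm (-0.49, adjusted p = 0.0575) no longer passed and Gtf3c6 did (-0.46, adjusted p = 0.0421). Median centring (572 genes, 305 higher and 267 lower, against 121 and 489) and totals without acinar enzymes (673 genes, 261 higher and 412 lower) each called 1 synthetase, the cytosolic Vars (0.45 in both; adjusted p = 0.0157 and 0.0170). Centring moved the mitochondrial median to -0.05 and turned Cars to 0.01, Dars to 0.02, Hars to 0.08, Qars to 0.10, Rars to 0.06, Rars2 to 0.06, Tars2 to 0.07, Vars2 to 0.06, Yars to 0.10, Aimp2 to 0.07, Eif2ak4 to 0.04 and Xpot to 0.10. Totals without acinar enzymes turned Hars to 0.05, Qars to 0.08, Rars to 0.04, Rars2 to 0.01, Tars2 to 0.03, Vars2 to 0.01, Yars to 0.08, Aimp2 to 0.05 and Xpot to 0.08. Atf4 passed in both (0.60 and 0.59), and Aimp1, Tsfm, Eif2ak1 and Anxa1 passed in neither. Other named genes lost their call with no filter (Atf3, Tsfm, Eif2ak1, Ssb and Anxa1, adjusted p from 0.0577 to 0.0932), with limma-voom (Tsfm, Eif2ak1, Ssb and Anxa1, from 0.0595 to 0.0631), and with a pseudocount of 0.1 (Eif2ak1, 0.0533). Leaving out each library gave 185 to 686 genes, 0 to 4 synthetases, all cytosolic, and medians of 0.02 to 0.14 for cytosolic and -0.27 to -0.09 for mitochondrial members. Log2 changes that crossed 0 ranged from -0.00 to 0.10 for Farsb, -0.02 to 0.14 for Gars, -0.07 to 0.02 for Hars, -0.05 to 0.12 for Lars, -0.06 to 0.05 for Qars, -0.14 to 0.05 for Rars, -0.09 to 0.03 for Rars2, -0.06 to 0.00 for Tars2, -0.01 to 0.15 for Tarsl2, -0.14 to -0.00 for Vars2, -0.09 to 0.12 for Yars, -0.06 to 0.05 for Asns, -0.13 to 0.02 for Aimp2 and -0.12 to 0.09 for Xpot. The cause of these shifts was not tested.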
